A study of Homo sapiens with 13 samples.

Results

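The EGFR family comprises the receptor tyrosine kinases EGFR, ERBB2, ERBB3 and ERBB4 and the growth factors that bind them, of which AREG, EREG, HBEGF, TGFA, BTC and NRG1 were examined here. These 10 genes, 4 receptors and 6 ligands, were taken from a list that was chosen with earlier results of these data known. They are 10 of the 19894 protein-coding genes with a canonical transcription start site (TSS) in GENCODE release 44 on GRCh37 (hg19). Chromatin immunoprecipitation and sequencing (ChIP-seq) was done in MDA-MB-231 cells, an established human cell line from a triple negative breast cancer, grown under standard culture conditions with no treatment or second condition. Of 13 libraries, 11 were immunoprecipitated with antibodies to the histone marks H3K4me3, H3K27ac and H3K4me1, to RNA polymerase II (Pol II), to the acetyltransferases p300/CBP or to the architectural protein CTCF, and 2 were inputs. Each antibody had 2 libraries that the authors merged before calling peaks, except p300/CBP, which had 1 library, so each antibody gave a single list of peak positions with neither a height nor a replicate. No difference between genes could therefore be set against replicate error, and all counts below are descriptions of these lists.

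EGFR family ligands are made as membrane-anchored precursors that metalloproteases shed, and the released factors bind the extracellular part of the receptors. Binding lets receptors pair, as homodimers or heterodimers, and the kinase domains phosphorylate tail tyrosines that dock adaptors of the Ras-MAP kinase, PI3 kinase and STAT routes. EGFR binds EGF, TGFA, AREG, EREG, HBEGF and BTC, ERBB3 and ERBB4 bind neuregulins, and ERBB2 has no known ligand and acts as a partner of the others. In breast tumors ERBB2 amplification defines a treated class, whereas triple negative tumors lack it and often carry high levels of EGFR.

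Promoters were taken as 3 kb windows centered on the canonical TSS, and a locus as the gene body with 100 kb on either side. H3K4me3 marks TSSs in use, H3K27ac marks active promoters and enhancers, and H3K4me1 marks enhancers. As in the study, a promoter window with H3K27ac was called a candidate active promoter (cAP), and an H3K4me1 region that touched an H3K27ac region and no promoter window was called a candidate active enhancer (cAE). Over the genome the lists held 24693 H3K4me3, 41034 H3K27ac, 88319 H3K4me1, 26065 Pol II, 13984 p300/CBP and 39596 CTCF peaks, with a median width from 150 bp for p300/CBP to 1300 bp for H3K27ac, and 24323 cAEs. The study counts slightly fewer peaks for CTCF and for Pol II, far fewer for p300/CBP, and more cAEs. Background shares below rest on the lists as counted here, and why the counts differ was not tested. All positions lie on a grid of 50 bp. Depth per library cannot be read from peak positions and is unknown.

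Several sequences recur in the results below and were read from GRCh37. The 250 bases before the EGFR and HBEGF start sites are printed here. Their promoters lay under H3K4me3 peaks of 5100 and 6000 bp, wider than 96.0% and 97.8% of those over marked windows. The peak at NRG1 (sequence not shown) was 6900 bp wide, wider than 98.7%. Capitals mark the GC box GGGCGG or its reverse complement CCGCCC, the site of Sp family factors. The strand of the gene is printed, from chr7:55086460-55086709 for EGFR (+ strand) and chr5:139726189-139726438 for HBEGF (− strand).
EGFR promoter: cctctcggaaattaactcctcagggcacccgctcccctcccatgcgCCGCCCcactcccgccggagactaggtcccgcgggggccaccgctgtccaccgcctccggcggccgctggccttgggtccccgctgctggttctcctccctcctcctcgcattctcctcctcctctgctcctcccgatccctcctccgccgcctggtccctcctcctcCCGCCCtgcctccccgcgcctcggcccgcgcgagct
HBEGF promoter: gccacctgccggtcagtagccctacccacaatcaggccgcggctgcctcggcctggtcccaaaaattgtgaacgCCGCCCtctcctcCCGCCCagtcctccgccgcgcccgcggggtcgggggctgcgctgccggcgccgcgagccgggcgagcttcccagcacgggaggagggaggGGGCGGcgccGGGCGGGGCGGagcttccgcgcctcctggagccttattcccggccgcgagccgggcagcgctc
The EGFR promoter held 2 GC boxes and 25 CpG dinucleotides, and the HBEGF promoter held 5 and 33. A GC box was present in this stretch in 5 of the 9 members searched and in 59.1% of all protein-coding genes.

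The p300/CBP peaks are the narrowest features and sit far from these promoters. The 5 peaks shown here belong to the EGFR and EREG loci, are at most 300 bp wide and hold the AP-1 motif TGACTCA or its reverse complement TGAGTCA (capitals), the site bound by the Fos and Jun factors that the study was designed around. They are the peaks at chr7:55035101-55035201 and chr7:55053101-55053351 upstream of EGFR, chr7:55133551-55133701 in intron 1 of EGFR, chr4:75240751-75241051 in intron 1 of EREG and chr4:75260501-75260801 past the end of EREG, all on the + strand, with the listed end taken as the base after the peak.
EGFR, 51.5 kb upstream: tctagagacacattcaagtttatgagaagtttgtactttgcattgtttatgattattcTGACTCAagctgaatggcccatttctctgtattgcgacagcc
EGFR, 33.4 kb upstream: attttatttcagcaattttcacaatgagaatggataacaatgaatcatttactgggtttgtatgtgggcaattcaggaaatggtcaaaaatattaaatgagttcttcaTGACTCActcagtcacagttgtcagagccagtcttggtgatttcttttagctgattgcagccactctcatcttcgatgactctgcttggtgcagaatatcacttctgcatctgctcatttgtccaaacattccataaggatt
EGFR, intron 1, 46.8 kb from the TSS: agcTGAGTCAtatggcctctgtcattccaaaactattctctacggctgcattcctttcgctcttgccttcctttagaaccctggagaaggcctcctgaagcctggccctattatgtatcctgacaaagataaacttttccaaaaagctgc
EREG, intron 1, 9.89 kb from the TSS: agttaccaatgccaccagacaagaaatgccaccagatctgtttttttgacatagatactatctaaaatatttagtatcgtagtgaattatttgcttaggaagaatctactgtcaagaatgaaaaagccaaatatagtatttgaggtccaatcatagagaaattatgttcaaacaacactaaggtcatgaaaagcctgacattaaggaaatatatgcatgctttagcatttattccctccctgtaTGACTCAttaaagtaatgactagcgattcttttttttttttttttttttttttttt
EREG, 29.6 kb from the TSS: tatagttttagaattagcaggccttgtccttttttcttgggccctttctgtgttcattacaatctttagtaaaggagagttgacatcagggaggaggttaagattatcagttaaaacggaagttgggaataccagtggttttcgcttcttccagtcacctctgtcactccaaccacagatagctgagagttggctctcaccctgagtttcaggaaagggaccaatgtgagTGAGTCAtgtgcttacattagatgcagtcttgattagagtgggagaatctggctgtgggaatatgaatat

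At the promoters, 9 of the 10 genes carried H3K4me3 and the same 9 carried H3K27ac and were cAPs, the exception being AREG. Over all protein-coding windows H3K4me3 was present at 62.7% and H3K27ac at 61.4%. Pol II was found at 8 members (all windows, 58.4%), and was missing at ERBB4 and AREG. H3K4me1 reached into 7 windows (all windows, 59.3%), missing those of ERBB4, AREG and NRG1. CTCF lay in 6 windows, those of ERBB3, AREG, HBEGF, TGFA, BTC and NRG1, against 17.6% of all windows. The AREG peak lay mostly in sequence repeated in the genome, as set out below, and 5 members had CTCF in a 1 kb window. No member had p300/CBP at its promoter, where it is rare throughout (0.769% of windows).

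**Figure D1:**
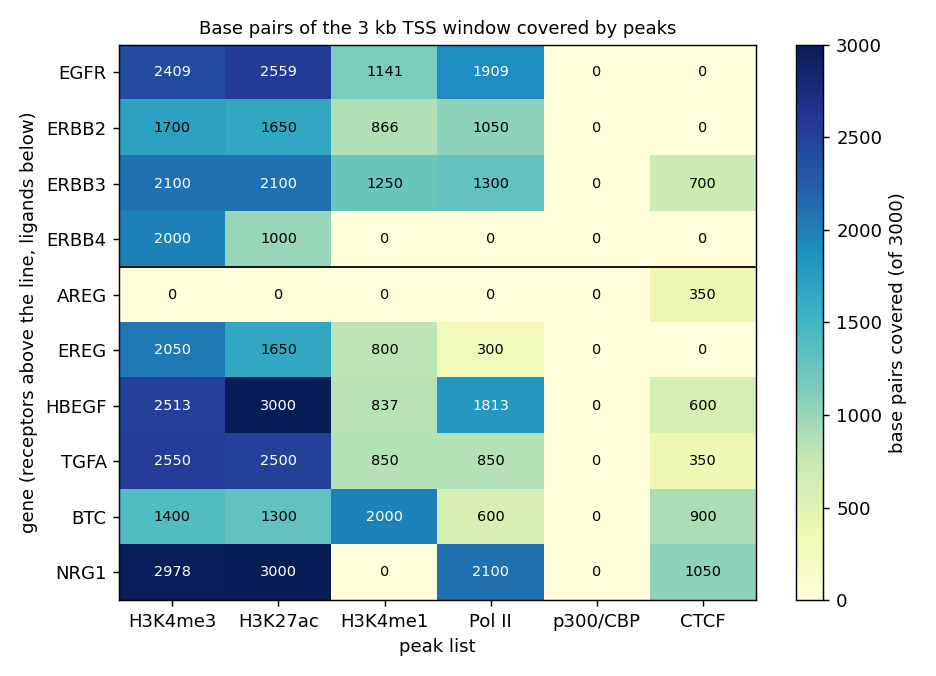
Base pairs of the 3 kb window around each canonical TSS that are covered by peaks of each list (columns), for the 4 receptors and 6 ligands (rows). The row of AREG is empty but for 350 bp of CTCF, ERBB4 has H3K4me3 and H3K27ac without Pol II, and the p300/CBP column is 0 throughout.

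EGFR, the receptor for most of the ligands listed here, had the largest share of its locus under H3K27ac (16.9%), H3K4me1 (35.5%), cAEs and p300/CBP among the 4 receptors, whereas ERBB3 had more of its locus under H3K4me3 (12.1% against 2.59% for EGFR), Pol II (17.3% against 7.78%) and CTCF (1.68% against 0.458%). The gene (ENSG00000146648.21) spans chr7:55086710-55279321 on the + strand. In its promoter window, H3K4me3 covered 2409 bp, H3K27ac 2559 bp, H3K4me1 1141 bp and Pol II 1909 bp. The H3K4me3 peak over the TSS was 5100 bp wide, wider than 96.0% of those over marked windows, whose median was 2250 bp. It ran from −0.909 kb to 4.19 kb relative to the TSS. EGFR was the only protein-coding gene with a canonical TSS in its 393 kb locus, and start sites of non-coding transcripts were not examined. Past the gene, 235 kb from the TSS, an intergenic H3K4me3 peak of 1650 bp overlapped H3K27ac, a 950 bp Pol II peak and 2 CTCF peaks, at 109 kb from the TSS of LANCL2.

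Beyond the promoter, 12 cAEs covered 104950 bp, or 26.7% of the EGFR locus, a larger share than in 99.6% of protein-coding loci. Their density was less extreme, at 3.06 per 100 kb, higher than in 90.9% of loci. ERBB3 (3.09) and TGFA (3.26) had more cAEs per 100 kb. Of the 12 EGFR cAEs, 3 lay upstream, 5 in intron 1, 2 farther along the gene and 2 past its end, the last ones nearer to LANCL2. The widest was 30750 bp and ran from 39.6 to 70.3 kb into intron 1. H3K27ac covered 28.3% of the gene body and H3K4me1 60.8%. Intron 1 also held 5 narrow H3K4me3 peaks of 300 to 850 bp, all of them inside cAEs.

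The EGFR locus held 13 p300/CBP peaks, a density of 3.31 per 100 kb that was higher than in 99.0% of loci. All 13 lay in cAEs, and 11 overlapped an H3K27ac peak itself. On the upstream side 4 peaks lay at 22.7, 33.4, 51.4 and 51.5 kb. In intron 1, 8 peaks lay at 33.1, 46.8, 54.9, 67.9, 109, 109, 114 and 115 kb from the TSS, and a last one, at 137 kb, overlapped exon 9. They were 100 to 400 bp wide, and the nearest protein-coding TSS of all 13 was that of EGFR. The peaks at 51.4 and 51.5 kb, and the pair at 109 kb, were close neighbors of 100 bp each. Because the lists are named as made from uniquely mapped reads, the peaks were checked for repeated sequence: none of 3963 words of 50 bases in and around them occurred more than once in the genome.

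Pol II was spread along EGFR in 28 peaks that covered 13.3% of the gene body. The TSS peak was 4050 bp wide, 15 peaks lay in intron 1 and the others followed toward the 3′ end, where a 4750 bp peak extended across the end of the gene. Of the 12 cAEs, 7 overlapped Pol II and 7 held p300/CBP. CTCF was sparse, with a single 100 bp peak inside the gene, in intron 3, and 5 peaks past its end. A minor start site of EGFR, 90.7 kb into intron 1, had no H3K4me3 or Pol II in its own window, which H3K4me1 covered over 3000 bp and H3K27ac over 1550 bp.

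**Figure D2:**
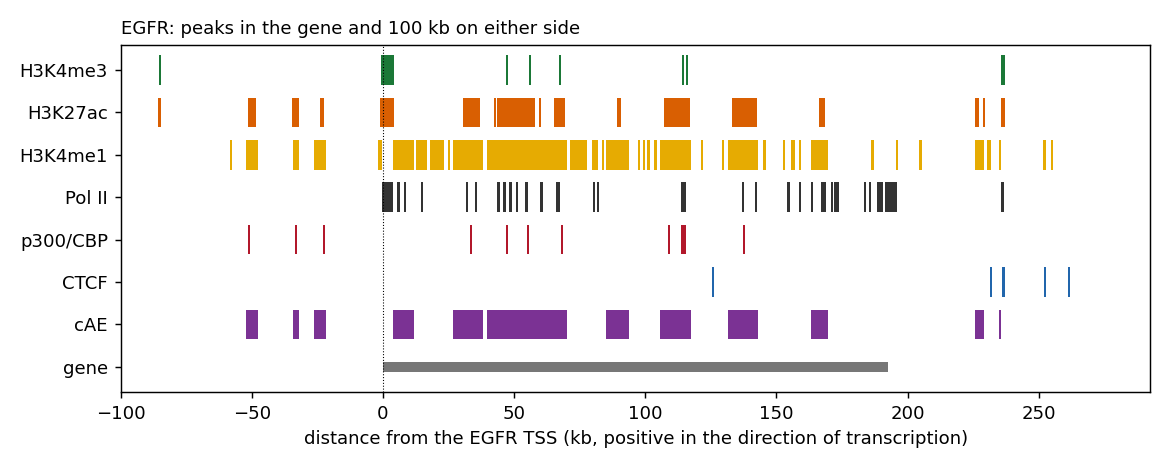
Peaks of the 6 lists, cAEs and the gene body (rows) in the EGFR locus, against distance from the TSS in kb, with narrow peaks drawn at a minimum width. The cAEs fill large stretches of intron 1, the 13 p300/CBP peaks fall inside cAEs, and Pol II peaks run along the gene to its 3′ end.

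The other receptors had smaller shares of their loci under cAEs. ERBB2, the co-receptor without a ligand (ENSG00000141736.14, chr17:37844167-37886679, + strand), had 1700 bp of H3K4me3, 1650 bp of H3K27ac and 1050 bp of Pol II in its window. These are middling values, higher than in 55.7%, 58.6% and 69.6% of genes. Its locus had 4 cAEs that covered 1.71%, below the median locus (2.63%), and the nearest TSS of none of them was that of ERBB2. The locus held 9 protein-coding TSSs, and by definition a region that touches a promoter window is no cAE. H3K27ac covered 5.44% of the locus and H3K4me1 11.4%, above the median locus (3.79% and 8.44%). ERBB2 had no p300/CBP peak in its locus, and the closest to its TSS was 324 kb away. An upstream start site of ERBB2, 12.2 kb before the canonical one, lay under an H3K4me3 peak of 2150 bp that also covered the TSS of PGAP3, and a Pol II peak of 5200 bp at the 3′ end also covered the TSS of MIEN1. The lists carry no strand, so Pol II at these shared places cannot be assigned to either gene.

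ERBB3, a neuregulin receptor with a weak kinase (ENSG00000065361.17, chr12:56470583-56497289, + strand), had 2100 bp of both H3K4me3 and H3K27ac and 1300 bp of Pol II in its window. A CTCF peak of 700 bp, wider than 98.8% of those at CTCF-marked windows, lay in the same window. Its 7 cAEs covered 4.59% of the locus, above the median locus (2.63%), at a density close to that of EGFR. None of them was nearest to the ERBB3 TSS in a locus with 12 protein-coding TSSs. p300/CBP was absent from this locus too, the closest peak being 439 kb from the TSS.

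ERBB4, the other neuregulin receptor (ENSG00000178568.16, chr2:212240442-213403565, − strand), had 2000 bp of H3K4me3 and 1000 bp of H3K27ac at its TSS but no Pol II peak in the window, in its 1163 kb gene body or anywhere in its 1363 kb locus. Its locus was thinly marked. H3K27ac covered 0.359% of it and H3K4me1 0.844%, more than in 10.8% and 9.56% of loci, respectively. There were 2 cAEs, 1900 and 3200 bp wide, and 3 p300/CBP peaks, none of which lay in a cAE or overlapped H3K27ac. All 3 were inside the gene, at 476, 517 and 1130 kb from the TSS.

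Among the ligands, HBEGF and NRG1 had the broadest promoter marks. HBEGF, the heparin-binding ligand of EGFR and ERBB4 (ENSG00000113070.8, chr5:139712428-139726188, − strand), had 2513 bp of H3K4me3, 3000 bp of H3K27ac and 1813 bp of Pol II in its window. The H3K4me3 peak was 6000 bp wide, wider than 97.8% of those over marked windows. A pair of Pol II peaks, 7150 and 8050 bp wide, covered 92.7% of the gene body, more than in 96.9% of genes. HBEGF had 6 cAEs that covered 56850 bp, or 26.6% of the locus, a share above that of 99.5% of loci. Their density, 2.81 per 100 kb, was above that of 87.6% of loci. The HBEGF TSS was the nearest protein-coding TSS for 1 of the 6. A 9100 bp cAE lay within the gene, a 14900 bp cAE began 14.8 kb from the TSS, just past the gene end, and a 26750 bp cAE lay over CYSTM1 and PFDN1. All 4 p300/CBP peaks were past the gene end, at 22.9, 23.5, 34.1 and 94.7 kb from the TSS, in cAEs and overlapping Pol II, and the nearest TSS of each was that of PFDN1, not HBEGF.

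NRG1, the neuregulin ligand of ERBB3 and ERBB4 (ENSG00000157168.22, chr8:31496738-32713184, + strand), has several start sites over a gene body of 1216 kb. The window of the canonical TSS was covered by H3K4me3 over 2978 bp, by H3K27ac over 3000 bp and by Pol II over 2100 bp. The H3K4me3 peak was 6900 bp wide, the widest at the promoters of the 10 genes, and 5 CTCF peaks covered 1050 bp, more than in 99.9% of windows. Of its 17 start sites, the 9 clustered near the canonical one had H3K4me3. The others did not: the 3 sites about 909 kb upstream and the 4 near 98.8 kb downstream carried no mark at all, and the last one had H3K4me1 and H3K27ac only. NRG1 had 21 cAEs, of which 19 were inside the gene. All 13 p300/CBP peaks lay upstream of the canonical TSS but inside the gene body as annotated from its most upstream start site, 10 of them between 214 and 321 kb and 3 between 715 and 793 kb from the canonical TSS. Of the 13, 12 overlapped cAEs.

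TGFA, an EGFR ligand (ENSG00000163235.16, chr2:70674416-70781325, − strand), had 2550 bp of H3K4me3, 2500 bp of H3K27ac and 850 bp of Pol II at its promoter. The 850 bp peak was the only Pol II peak in its locus, which contained no other protein-coding TSS. TGFA had 10 cAEs over 11.0% of the locus, more than in 90.5% of loci, and 6 of these were nearest to the TGFA TSS. A cAE counts the whole H3K4me1 region, and H3K27ac itself covered 4.45% of the locus, more than in 55.8% of loci. Both p300/CBP peaks lay in cAEs, at 28.5 kb in intron 1 in the widest cAE (10500 bp) and at 42.7 kb upstream. None of the TGFA cAEs overlapped Pol II.

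EREG and BTC had narrower promoter marks. EREG (epiregulin, ENSG00000124882.4, chr4:75230862-75254466, + strand) had 2050 bp of H3K4me3, 1650 bp of H3K27ac and 300 bp of Pol II in its window. In its intron 1, next to the p300/CBP peaks at 9.39 and 9.89 kb, there were a 750 bp H3K4me3 peak at 10.4 kb and a 1250 bp Pol II peak at 10.3 kb. EREG had the shortest distance from TSS to p300/CBP of the 10 genes, shorter than in all but 4.23% of protein-coding genes. BTC (betacellulin, ENSG00000174808.12, chr4:75669969-75719733, − strand) had 1400 bp of H3K4me3, 1300 bp of H3K27ac and 600 bp of Pol II. H3K4me1 covered 2000 bp of its window, more than in 95.4% of genes, and 2 CTCF peaks covered 900 bp. Its single p300/CBP peak lay 134 kb from the TSS, past the end of the gene, in a cAE of 3150 bp.

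**Figure D3:**
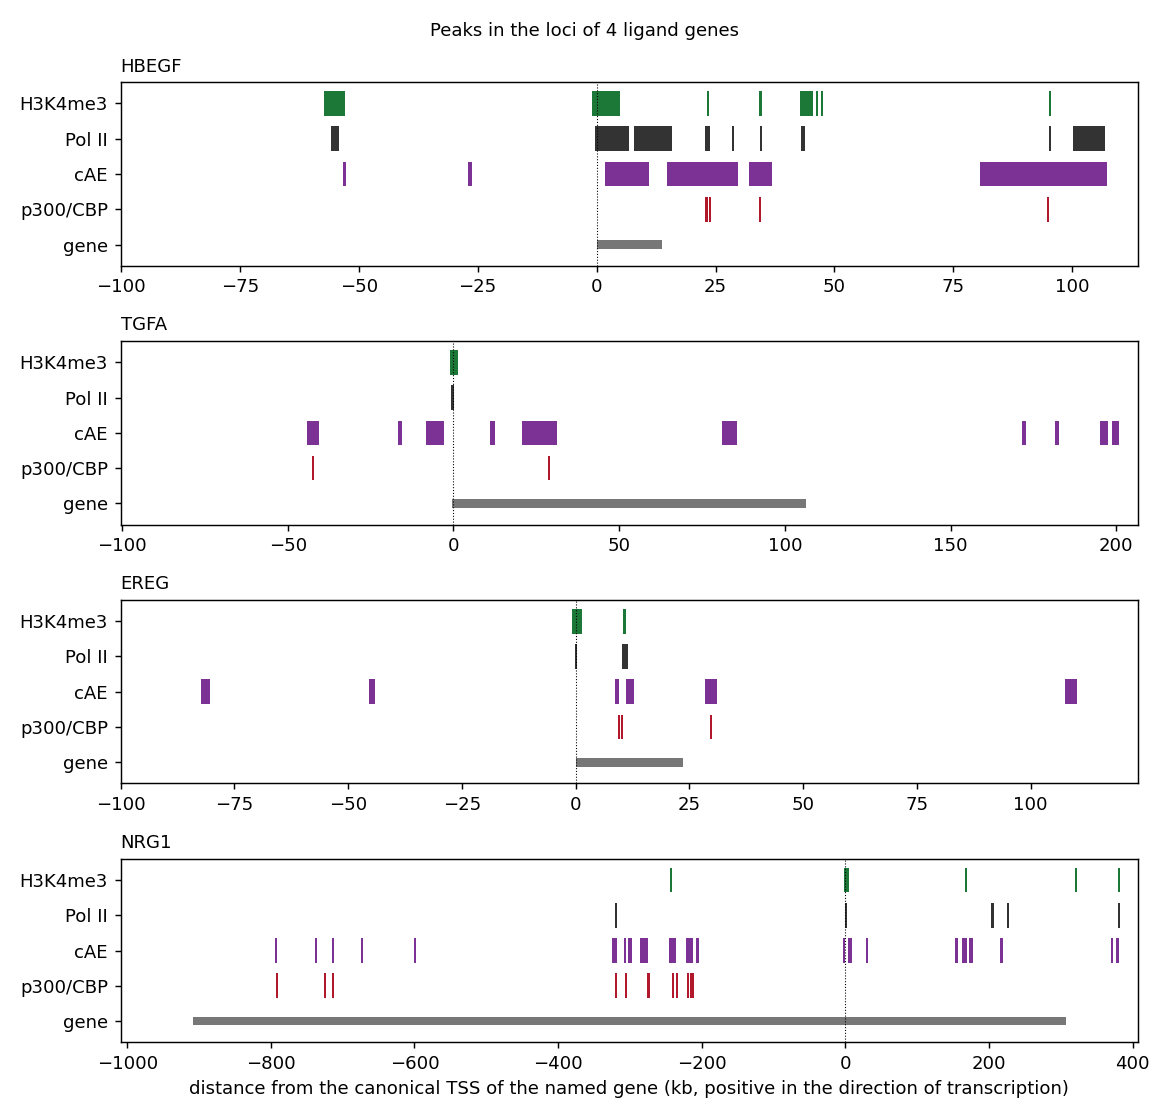
H3K4me3, Pol II, cAEs, p300/CBP and the gene body (rows) in the loci of HBEGF, TGFA, EREG and NRG1 (panels), against distance from the canonical TSS in kb, with narrow peaks drawn at a minimum width. HBEGF carries Pol II over most of its body with p300/CBP past its end, TGFA has Pol II at its TSS alone, and the NRG1 p300/CBP peaks lie between 214 and 793 kb upstream of the canonical TSS.

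AREG, amphiregulin, another EGFR ligand (ENSG00000109321.11, chr4:75310853-75320722, + strand), stood apart, with no H3K4me3, H3K27ac, H3K4me1, Pol II or p300/CBP peak in its window or gene body. The single feature was a 350 bp CTCF peak (chr4:75311051-75311401) over exon 1. In GRCh37 AREG has a second copy, annotated as AREGB (ENSG00000205595.3, chr4:75480629-75490486), 170 kb away. The gene bodies of the copies were 99.6% identical over 9881 aligned columns, and 92.1% of the 50-base words of the AREG window occurred more than once in the genome. The median over all windows was 0.881%, and 299 of 19894 windows had a higher share than AREG. At the other 9 members the share was at most 2.85% (EREG). In and around the AREG CTCF peak, 351 of 401 words (87.5%) were repeated too. As the lists are named as made from uniquely mapped reads, absence of a peak at AREG is not a measurement of an unmarked promoter, and the part of the repeated sequence in it was not tested.

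The AREGB copy likewise had no H3K4me3, H3K27ac, H3K4me1 or Pol II peak in its body. It had a CTCF peak of 100 bp (chr4:75481001-75481101), whose 100 bases were identical to those of the corresponding part of the AREG CTCF peak, and a p300/CBP peak of 150 bp in the gene. In the AREG locus, 5 cAEs and 4 p300/CBP peaks were found. Of the p300/CBP peaks, 3 were those of the overlapping EREG locus, and the other lay 56.4 kb from the AREG TSS, past the gene end, in a 6500 bp cAE whose nearest TSS was that of AREG.

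Across the loci, p300/CBP was present for 8 of the 10 genes, all but ERBB2 and ERBB3, against 37.5% of protein-coding loci. The density was 0.785 peaks per 100 kb for the median member and 0 for the median locus, at a median locus length of 246 kb and 228 kb, respectively. The NRG1 and ERBB4 loci were far longer, at 1416 and 1363 kb, and a longer locus has more room for a peak. The AREG and EREG loci share 3 of their peaks. Shares of loci with a peak were not matched for length. A cAE was present for all 10, against 80.6% of loci, and a Pol II peak in the gene body for 8, against 63.6% of genes. From the TSS to the nearest p300/CBP peak, 5 of the 10 genes had less than 60 kb, as did 20.8% of all genes. The 60 kb cut was not set in advance. The distances were 22.7 kb for EGFR, 22.9 kb for HBEGF, 28.5 kb for TGFA, 9.39 kb for EREG and 50.1 kb for AREG. The nearest peak of AREG also belongs to the EREG locus. The median over all genes was 198 kb, and 4 members lay farther away, with 214 kb for NRG1, 324 kb for ERBB2, 374 kb for ERBB4 and 439 kb for ERBB3.

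**Figure D4:**
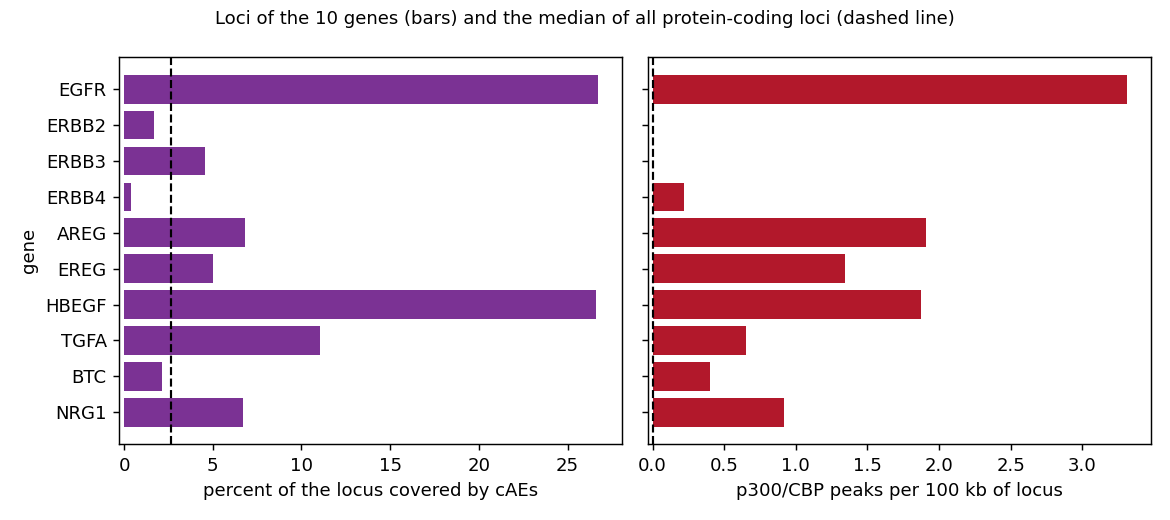
Percent of the locus covered by cAEs (left) and p300/CBP peaks per 100 kb of locus (right) for each of the 10 genes, with the median of all protein-coding loci as a dashed line (2.63% and 0). EGFR and HBEGF reach 26.7% and 26.6% for cAEs, and EGFR has the highest p300/CBP density, 3.31 per 100 kb. The nearest protein-coding TSS was the gene's own for 10 of 12 EGFR cAEs and 1 of 6 HBEGF cAEs.

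Counting each element a single time, the 10 loci held 72 cAEs and 40 p300/CBP peaks. Of the p300/CBP peaks, 35 (87.5%) overlapped a cAE, and over the genome 50.1% did. EGFR gave 13 of 13 and NRG1 12 of 13, whereas ERBB4 gave 0 of 3. The genome share is over all p300/CBP peaks, whether or not they lie in a gene locus. The study, with its shorter p300/CBP list and more cAEs, places a larger share of that list in cAEs. p300/CBP was present at 23 of the 72 cAEs (31.9%) and at 20.6% of cAEs over the genome, and Pol II at 18 (25%) and 21.0%, respectively. Neighboring peaks in a locus are not independent, so no test was made of these shares. Of the 40 p300/CBP peaks, 38 contained no repeated word of 50 bases, and the highest share was 2.56%.

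AP-1 motifs were found in 16 of the 40 p300/CBP peaks (40%), and among all p300/CBP peaks of the same widths the share was 30.1%. For the TEAD motif GGAATG (reverse complement CATTCC) the count was 9 (22.5%) and the share at the same widths was 29.4%. Both strands were searched, and 0 AP-1 matches overlapped a TEAD match. The matches were uneven between loci: 7 of 13 peaks had AP-1 at EGFR (3 of 4 upstream, 3 of 8 in intron 1 and the peak at exon 9), 3 of 3 at EREG, 4 of 13 at NRG1, and 0 of 4 at HBEGF and 0 of 2 at TGFA. The single BTC peak held 2 matches. A match is a description of the letters and not of binding.

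The gene whose pattern was most like that of EGFR was CD44, the hyaluronan receptor, followed by ENSG00000273269 and by ANKRD33B. Likeness was the distance between percentile ranks over 12 values, the covered length in the window and the covered share of the locus for the 6 lists, and was 11.7 for CD44, 20.0 for ENSG00000273269 and 20.3 for ANKRD33B. The median distance over all genes was 136. Within the family HBEGF was nearest (91.8), with 2709 genes nearer than it, and ERBB4 was farthest (183).

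The surrounding pathway was read from a list of 24 genes in 5 roles. H3K4me3 was present at 20 of their promoters (83.3%, against 62.7% of all genes), H3K27ac at 20 (83.3%, against 61.4%), Pol II at 19 (79.2%, against 58.4%), H3K4me1 at 14 (58.3%, against 59.3%), CTCF at 5 (20.8%, against 17.6%) and p300/CBP at 1. In their loci, 9 had a p300/CBP peak (37.5%, the share over all genes) and 22 a cAE (91.7%, against 80.6%). Other ligands were the exception: of EGF, EPGN, NRG2, NRG3 and NRG4, NRG2 alone had H3K4me3 (2317 bp) and Pol II (250 bp), and EGF had 200 bp of H3K27ac. All 4 genes of ligand shedding, all 6 adaptors and effectors and all 4 genes of receptor turnover had H3K4me3, H3K27ac and Pol II. Of the feedback inhibitors, LRIG1 had 2000 bp of H3K4me3 but neither H3K27ac nor Pol II. The feedback genes ERRFI1, SPRY2, SPRY4 and DUSP6 carried Pol II over 100% of the gene body, as did VIM, AXL and FOSL1 among the marker genes below. They were named after their values were seen, and the share of all genes with such values is not given here. DUSP6, a phosphatase of ERK, was the gene with p300/CBP at its promoter (300 bp), and 9 p300/CBP peaks lay in its locus and 9 in that of ERRFI1, an inhibitor of EGFR.

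The promoters of marker genes of the line were checked too. All 5 mesenchymal markers (VIM, CD44, CAV1, AXL, FOSL1) had H3K4me3, H3K27ac and Pol II at their promoters. Of 7 luminal epithelial genes, FOXA1 and KRT8 had all 3 marks, PGR had 700 bp of H3K4me3 only, and ESR1, GATA3, CDH1 and EPCAM had none. PTPRC and CD3E, markers of blood cells, had none. The PTPRC locus nevertheless held 7 cAEs and 7 p300/CBP peaks, 4 of them in the gene, the GATA3 locus held 8 cAEs and 4 p300/CBP peaks, and all 7 luminal loci held a cAE. Both cAEs and p300/CBP peaks were thus present in loci of genes without promoter marks.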

How the data were processed

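MDA-MB-231 chromatin had been immunoprecipitated for H3K4me3, H3K4me1, H3K27ac, CTCF and Pol II (2 libraries each) and p300/CBP (1 library from pooled immunoprecipitations). The 2 input libraries were not used here. Per the methods of the study, the authors aligned reads to hg19 with BWA (the submitters' processing notes name Bowtie2), processed them with PASHA, merged replicates and called peaks by a signal threshold (30 for H3K4me1 and H3K4me3, 50 for H3K27ac, Pol II and CTCF, 60 for p300/CBP), joining bins across gaps of 1000 bp for H3K4me1, 500 bp for H3K4me3 and H3K27ac, 800 bp for Pol II and 50 bp for p300/CBP and CTCF. The names of the deposited files give uniquely mapped reads and 50 bp bins. They name scaling for all lists but CTCF, and background subtraction for all but Pol II and CTCF. What this did to the Pol II and CTCF lists was not tested. The deposited lists hold peak positions in bp only, so broad gaps widen peaks and width is no measure of signal. Positions were compared in Python 3.11.15 with NumPy 2.4.6 and pandas 2.3.3, and plots made with matplotlib 3.10.9. An overlap of at least 1 bp counted. GENCODE release 44 on GRCh37 replaced RefSeq, and every percentile is over 19894 protein-coding genes. Repeated words were counted on both strands of GRCh37. Interval and word-counting steps were tested on simulated data. All 10 members are named; in the pathway list, genes that depart from their role are named, and neighbors where a peak covers or lies nearest to their TSS. DUSP6, ERRFI1, SPRY2 and SPRY4 were named after their values were seen. PECAM1, a further marker of other cells, had no canonical TSS and was not analysed here. With 1 merged list per antibody, no test was possible. The members and lists were chosen with earlier results of these data known.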

Additional observations from a re-analysis of the deposited data

How the results depend on the processing

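Of 47 alternative settings over 11 results, 43 stayed within 1.5 times the reported count. The count of members with H3K4me1 in the promoter window fell from 7 to 4 in a 1 kb window and to 4 when peaks narrower than their list's median width were dropped. The count of cAEs in the 10 loci fell from 72 to 36 with those wide peaks and to 38 when H3K27ac had to cover 50% or more of an H3K4me1 region, and in each case the alternative asks for more marked sequence by construction. H3K4me3 at the promoters stayed at 9 of 10 genes in all 5 alternatives. A wide-peak filter lowered H3K27ac to 8 and Pol II to 6 genes. The count of p300/CBP peaks ranged from 31 to 44, and that of loci with p300/CBP from 7 to 8. No paired analysis was possible because replicates had been merged before peaks were called. A stricter signal threshold could not be applied, since the lists hold no value per peak. Unknown depth limits all absences: a gene without a peak may lie below the threshold, and with 1 p300/CBP library a missing peak has no second library beside it.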

Other observations

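The canonical promoter windows of the family differed in CpG content. The ratio of observed to expected CpG was 0.821 for NRG1 and 0.780 for EGFR, higher than in 94.6% and 90.6% of protein-coding windows, and 0.703 for ERBB4, which had H3K4me3 without Pol II. It was 0.428 for ERBB2, 0.438 for BTC, 0.490 for EREG, 0.516 for ERBB3 and 0.536 for HBEGF, below the median of 0.567 over all windows, and these 5 windows carried H3K4me3, H3K27ac and Pol II.

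Among CTCF peaks, the NRG1 and BTC windows were covered over 1050 and 900 bp, more than in 99.9% and 99.8% of windows, whereas the EGFR, ERBB2, ERBB4 and EREG windows had none.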
